A study of Mus musculus with 16 samples.

Results

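The 7 genes examined here encode Regnase, Roquin and ZFP36 proteins, which shorten the life of cytokine messenger RNA: Zfp36, Zfp36l1, Zfp36l2, Zc3h12a, Zc3h12d, Rc3h1 and Rc3h2. They were taken by name from the table of raw counts, where all 7 were found among 54456 gene rows, and all 7 were among the 15675 genes with enough counts to be tested. RNA had been sequenced from OT-I T cells, which are mostly CD8 cells and carry a transgenic receptor for a peptide of ovalbumin. There were 4 groups of 4 libraries: visceral adipose tissue (VAT) from mice on a high-fat diet (HFD, 60% of calories from fat, 8 weeks), VAT from lean mice on chow, lymph node (LN) from mice on HFD, and LN from lean mice. A time of 8 weeks is given for all 4 groups, lean ones included. All groups carry the OT-I receptor, and the labels name no other allele or agent that separates them. A second header line of the count table marks all 16 libraries Neg-OVA, which is not explained in the sources used here, so what antigen the cells had met is not known. Age, sex, strain and any pooling of mice are not given in the sources used here. The sample labels call the cells fresh, whereas the design text has them sorted after a night in culture. The labels name the libraries as biological replicates without saying whether each came from its own mouse, so p-values measure the spread between these libraries.

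The ZFP36 proteins bind AU-rich elements in the 3′ untranslated region (UTR) of an mRNA through tandem zinc fingers and call in the CCR4-NOT complex, which removes the poly(A) tail. Roquin proteins bind short stem-loops in the 3′ UTR and also call in CCR4-NOT, while Regnase proteins cut such stem-loops as endonucleases. In T cells antigen signals disarm them: the protease MALT1 cleaves Regnase-1 and the Roquins, and the kinase MK2 phosphorylates tristetraprolin, the product of Zfp36. Tnf, Ifng, Il2, Icos, Rel and Tnfrsf4 are known target transcripts.

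Matches to sequence motifs of the kind these proteins read are shown for targets and for the 3 ZFP36 transcripts themselves, because the values below concern both. Binding at these places was not tested. Each line is 30 bases of a 3′ UTR, written 5′ to 3′ on the mRNA strand as DNA letters from the GENCODE M21 annotation of mouse GRCm38. The capitals mark the AU-rich heptamer TATTTAT, the nonamer TTATTTATT that contains it, or the stem-loop sequence TTCTGTGAA. Only the first match in the UTR is marked, a nonamer where there is any and otherwise a heptamer. Further matches stay in lower case, and the Tnf UTR holds 8 heptamers and 5 nonamers.
Tnf, chr17:35199688-35199717, minus strand: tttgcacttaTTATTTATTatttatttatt
Ifng, chr10:118445323-118445352, plus strand: aaatctaaaccTATTTATtaatatttaaaa
Il2, chr3:37120897-37120926, minus strand: ttatctgaaaTTATTTATTatattgaattg
Zfp36, chr7:28376950-28376979, minus strand: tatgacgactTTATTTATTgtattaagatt
Zfp36l1, chr12:80108166-80108195, minus strand: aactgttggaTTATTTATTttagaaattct
Zfp36l2, chr17:84184913-84184942, minus strand: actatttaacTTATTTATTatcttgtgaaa
Tnf, chr17:35199577-35199606, minus strand: cagacatgttTTCTGTGAAaacggagctga
Icos, chr1:60999479-60999508, plus strand: agaacaaaatTTCTGTGAAataaaatctgg

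The 3 ZFP36 transcripts had the same make-up by this search, 3 heptamers and 1 nonamer each. Among 3′ UTRs within 10% of their length, a nonamer was found in 4.36% for Zfp36, 9.72% for Zfp36l1 and 9.77% for Zfp36l2. Rc3h1 and Rc3h2 also held 1 nonamer each, but in long UTRs of 7181 and 5331 bases, where 27.2% and 24.8% of UTRs of that length hold it. Neither AU-rich motif was found in the UTRs of the Regnase genes Zc3h12a and Zc3h12d. Rc3h1 held the stem-loop sequence at 2 places and Rc3h2 at 1, against 12.0% and 7.23% of UTRs of like length with any. Of the 26 known target transcripts that could be tested for expression, 15 held the heptamer, 8 the nonamer and 4 the stem-loop sequence, against 27.4%, 7.54% and 2.30% of all 20981 UTRs searched. The list was made of known targets, and the stem-loop sequence searched is that of Tnf, itself 1 of the 4. These shares are therefore no test of enrichment. Only the mRNA strand was searched, and a match describes letters and not a working site.

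Library totals were 40212388 to 65957407 counts, and 3 counts in a library correspond to 0.0437 to 0.0803 CPM (counts per 1e6 of the TMM-scaled library total). The summed level of 10 T cell markers lay between 12845 and 17999 CPM in every library, and 8 of the 10 were not called between tissues. Of the chains of CD8, Cd8a was higher in VAT by 1.64 on the log2 scale on HFD (edgeR adjusted p = 1.68e-05) and 1.36 in lean mice (edgeR adjusted p = 9.1e-05), and Cd8b1 fell by 0.75 on HFD (edgeR adjusted p = 0.00241) and 0.59 in lean mice (edgeR adjusted p = 0.0179). B and plasma cell markers (12 genes) summed to 169 to 360 CPM in HFD VAT, 85.6 to 221 CPM in lean VAT, 1781 to 2625 CPM in HFD LN and 1627 to 3208 CPM in lean LN, and Fcmr and Iglc2 were at 0 in all VAT libraries. Macrophage and monocyte markers (9 genes) summed to 33.4 to 131 CPM in HFD VAT, 27.4 to 78.7 CPM in lean VAT, at most 2.43 CPM in HFD LN and at most 6.14 CPM in lean LN, with C1qa and Cd14 at 0 in all VAT libraries. Natural killer markers (6 genes) summed to 250 to 354 CPM in HFD VAT, 109 to 300 CPM in lean VAT, 17.3 to 117 CPM in HFD LN and 37.1 to 108 CPM in lean LN. Dendritic cell markers (8 genes) summed to 83.8 to 275 CPM in HFD VAT, 109 to 123 CPM in lean VAT, 416 to 1092 CPM in HFD LN and 219 to 1424 CPM in lean LN, and of 7 tested Cd74 and H2-Aa fell in VAT on both diets. Endothelial markers (4 genes) summed to 43.5 to 98.4 CPM in HFD VAT, 29.0 to 67.6 CPM in lean VAT, 124 to 204 CPM in HFD LN and 70.3 to 169 CPM in lean LN. Of these, Cdh5, Kdr and Vwf had too few counts to be tested, and Pecam1 was not called between tissues on either diet. These differences run with tissue, as do the comparisons below, and their part in the results was not tested. In bulk RNA fewer cells with a transcript and less of it per cell cannot be told apart. In 3 libraries many genes of good level elsewhere were missing: 13.2% of genes in lean VAT replicate 1, 11.4% in HFD VAT replicate 3 and 11.3% in HFD VAT replicate 1 had 3 counts or fewer although their median in the other libraries of the group reached 10 CPM, against 0.730% to 5.38% in the other 13 libraries.

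None of the 7 transcripts passed the test in any comparison of tissue or diet. On HFD, 0 of 7 were called between VAT and LN by the quasi-likelihood test of edgeR, adjusted over all genes by Benjamini-Hochberg, where 4.56% of genes were called. In lean mice 0 of 7 were called, against 3.04% of genes. Between HFD and lean mice 0 of 7 were called in VAT, against 0.0574% of genes, and 0 of 7 in LN, where 0% of genes were called. The contrast of the diet effect in VAT with that in LN also gave 0 of 7, against 0.0191% of genes. At an unadjusted p under 0.05 the count was 1 of 7 for each tissue comparison, where 18.8% (HFD) and 13.8% (lean) of genes passed, and 0 of 7 for the other comparisons, where 8.08%, 3.37% and 6.16% of genes passed for diet in VAT, diet in LN and the difference between them. Groups that did not overlap were found for 0 of 7 in tissue on HFD (15.2% of genes), 2 of 7 in tissue in lean mice (12.9%), 0 of 7 between diets in VAT (3.22%), and 0 of 7 between diets in LN (2.26%). DESeq2 called 1 of 7 for tissue in lean mice, Zc3h12a, and 0 in the others, and voom called 0 in all of them. The median fitted log2 fold change of the 7 was 0.43 for HFD VAT over HFD LN and 0.55 for lean VAT over lean LN, beside -0.10 and -0.0029 over all genes tested. For HFD over lean it was -0.05 in VAT and -0.15 in LN, beside -0.10 and 0.00084.

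**Figure D1:**
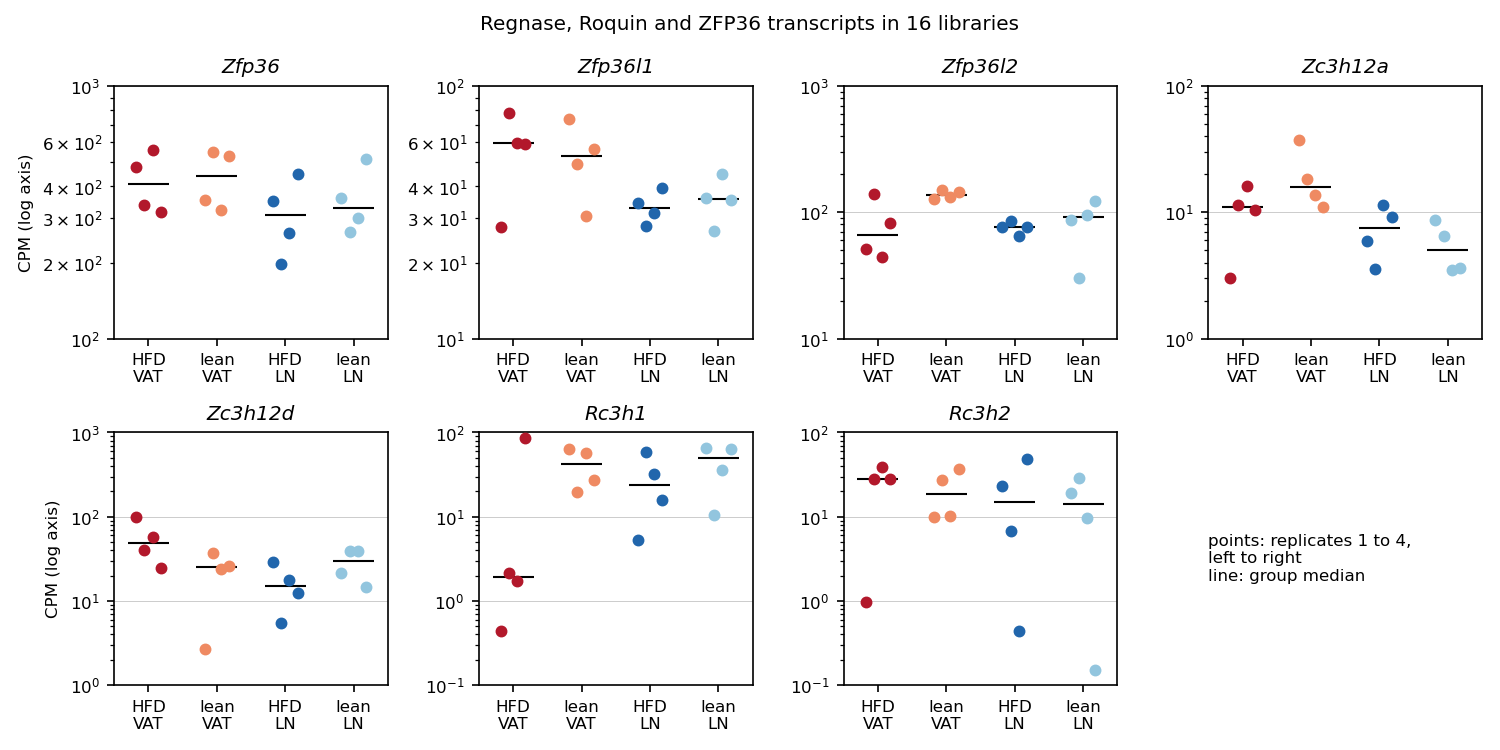
Level of each of the 7 transcripts in CPM, on a log axis, in 4 libraries each of HFD VAT, lean VAT, HFD LN and lean LN. Points are libraries and lines are group medians. Zfp36 spans 197 to 557 CPM, whereas Rc3h1 and Rc3h2 reach below 1 CPM in single libraries.

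Zfp36 (chr7:28376784-28380253, minus strand of GRCm38) encodes tristetraprolin, the founding member of its family, and was the most abundant of the 7 for its length. It had 480, 339, 557 and 317 CPM in HFD VAT replicates 1 to 4 and 353, 547, 323 and 528 CPM in lean VAT. It had 351, 197, 263 and 449 CPM in HFD LN and 359, 264, 300 and 513 CPM in lean LN. The groups overlapped in every comparison. No VAT library lay below 317 CPM, while each LN group held libraries under that level and others above it. The fitted log2 fold change was 0.43 ± 0.30 (SE; 95% interval -0.21 to 1.06) for HFD VAT over HFD LN, with an adjusted p of 0.532 from edgeR. In lean mice it was 0.28 ± 0.30 (95% interval -0.35 to 0.92). For HFD over lean it was -0.05 (95% interval -0.68 to 0.59) in VAT and -0.19 (95% interval -0.82 to 0.44) in LN. These intervals are the narrowest of the family, and their bounds lie within 2.08-fold up and 1.77-fold down for all 4 comparisons. Whether the counting used strand is not given in the sources used here. The genes of the ZFP36 family and Zc3h12d each overlap an annotated gene on the other strand, whose reads could not be told apart without strand. On the same strand Rc3h1 overlaps Gm37052, Gm37809 and Gm37653, Rc3h2 overlaps Snord90, and Zc3h12d overlaps Mir5104. Strand would not separate those, and the part of any overlap in the counts was not tested.

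Zfp36l1 (chr12:80107754-80113013, minus strand), a paralogue known with Zfp36l2 for guarding quiescence during lymphocyte development, was somewhat above its LN level in most VAT libraries. It had 27.7, 78.3, 59.5 and 59.1 CPM in HFD VAT and 73.8, 49.2, 30.7 and 56.2 CPM in lean VAT. It had 34.3, 27.8, 31.3 and 39.6 CPM in HFD LN and 36.0, 26.7, 44.9 and 35.4 CPM in lean LN. In HFD VAT 3 of 4 libraries lay above all 4 of HFD LN, and replicate 1 lay below them all. In lean VAT 3 of 4 lay above all of lean LN, and replicate 3 lay among them. The fitted log2 fold change was 0.76 ± 0.40 (95% interval -0.10 to 1.61; edgeR adjusted p = 0.343) on HFD and 0.55 ± 0.40 (95% interval -0.30 to 1.41; edgeR adjusted p = 0.700) in lean mice. Diet made a fitted difference of 0.10 in VAT and -0.10 in LN.

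Zfp36l2 (chr17:84183931-84187947, minus strand), whose product is known to hold back translation of preformed cytokine mRNA in memory T cells, was tightest in lean VAT. It had 51.2, 140, 44.4 and 81.9 CPM in HFD VAT and 127, 151, 132 and 145 CPM in lean VAT. It had 75.8, 84.7, 64.7 and 76.9 CPM in HFD LN and 87.5, 30.3, 94.7 and 123 CPM in lean LN. All 4 lean VAT libraries lay above all 4 lean LN libraries. Zfp36l2 and Zc3h12a were the 2 of 7 transcripts without overlap in that comparison. On HFD the tissues overlapped, and so did VAT of the diets through replicate 2 of HFD VAT. The fitted log2 fold change was 0.73 ± 0.40 (95% interval -0.14 to 1.59; edgeR adjusted p = 0.513) for lean VAT over lean LN and 0.07 (95% interval -0.79 to 0.94) for HFD VAT over HFD LN. For HFD VAT over lean VAT it was -0.80 ± 0.40 (95% interval -1.67 to 0.07; edgeR adjusted p = 0.658). Its diet effect in VAT minus that in LN was -0.65 (95% interval -1.87 to 0.57; edgeR adjusted p = 1.00).

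Zc3h12a (chr4:125118423-125127840, minus strand) encodes Regnase-1, an endonuclease that restrains T cell activation. It had 3.01, 11.4, 16.1 and 10.5 CPM in HFD VAT and 37.3, 18.3, 13.6 and 11.0 CPM in lean VAT. It had 5.95, 3.55, 11.5 and 9.19 CPM in HFD LN and 8.70, 6.47, 3.48 and 3.64 CPM in lean LN. Every lean VAT library lay above every lean LN library, and the highest of them, replicate 1, is also the library with the most missing genes. The fitted fold of lean VAT over lean LN was 3.60 (log2 1.85 ± 0.73, 95% interval 0.29 to 3.41; edgeR adjusted p = 0.256), and it was not called. DESeq2 called it, with a log2 fold change of 1.75 and an adjusted p of 0.0154. Without the 3 libraries with most missing genes edgeR gave 1.33 with an adjusted p of 0.338. On HFD the tissues overlapped, with a fitted log2 fold change of 0.44 (95% interval -1.07 to 1.96). For HFD over lean it was -0.97 (95% interval -2.50 to 0.56) in VAT and 0.44 (95% interval -1.08 to 1.95) in LN.

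Zc3h12d (chr10:7832470-7870396, plus strand) encodes Regnase-4, a relative of Regnase-1 found mainly in lymphocytes, and its order among the groups was another. It had 99.2, 39.8, 57.3 and 24.9 CPM in HFD VAT and 2.71, 37.4, 24.2 and 26.0 CPM in lean VAT. It had 28.9, 5.40, 17.6 and 12.3 CPM in HFD LN and 21.2, 39.0, 38.8 and 14.8 CPM in lean LN. In HFD VAT 3 of 4 libraries lay above all of HFD LN and replicate 4 lay within them, so the groups overlapped. The fitted fold of HFD VAT over HFD LN was 3.44 (log2 1.78 ± 0.76, 95% interval 0.15 to 3.42; edgeR adjusted p = 0.221). Without the 3 libraries with most missing genes, of which HFD VAT replicates 1 and 3 hold its highest levels, it was 0.99 on the log2 scale (edgeR adjusted p = 0.448). In lean mice the tissue difference was -0.33 (95% interval -1.92 to 1.26). The diet differences were 1.29 in VAT (95% interval -0.32 to 2.91) and -0.82 in LN (95% interval -2.42 to 0.78), and the difference between them, 2.12 ± 1.06, was not called (edgeR adjusted p = 0.842).

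Rc3h1 (chr1:160906418-160974978, plus strand) encodes Roquin-1, whose mutation in mice is known to let follicular helper T cells and ICOS accumulate. It had 0.436, 2.12, 1.71 and 85.1 CPM in HFD VAT and 63.0, 19.5, 57.4 and 27.6 CPM in lean VAT. It had 5.23, 59.1, 31.9 and 15.8 CPM in HFD LN and 65.2, 10.4, 36.1 and 62.9 CPM in lean LN. HFD VAT therefore holds both the 3 lowest levels of the 16 libraries and the highest. The 3 low libraries had 20, 93 and 64 counts and replicate 4 had 3650. With all libraries the fitted log2 fold change of HFD VAT over HFD LN was -0.33 ± 1.28 (95% interval -3.07 to 2.42; edgeR adjusted p = 0.959). Without HFD VAT replicate 4 it was -4.30 ± 1.04, and the transcript was called (edgeR adjusted p = 0.0365). Without the 3 libraries with most missing genes, which include 2 of the low ones, it was 0.62 (edgeR adjusted p = 0.851). For HFD VAT over lean VAT it was -0.91 (95% interval -3.67 to 1.85), or -4.88 ± 1.07 without HFD VAT replicate 4 (edgeR adjusted p = 0.133). It was, for HFD LN over lean LN -0.64 (95% interval -3.39 to 2.11) and for lean VAT over lean LN -0.06 (95% interval -2.80 to 2.68).

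Rc3h2 (chr2:37370069-37422903, minus strand) encodes Roquin-2, which overlaps with Roquin-1 in function. It had 0.982, 28.1, 38.9 and 28.3 CPM in HFD VAT and 9.84, 27.3, 10.1 and 37.0 CPM in lean VAT. It had 23.2, 6.75, 0.440 and 48.9 CPM in HFD LN and 19.0, 28.5, 9.63 and 0.149 CPM in lean LN. A single library fell below 1 CPM in each of HFD VAT, HFD LN and lean LN, with 45, 20 and 8 counts, and the groups overlapped in all comparisons. Low Rc3h1 and low Rc3h2 coincided in HFD VAT replicate 1 alone. The fitted log2 fold changes were 0.28 (95% interval -2.59 to 3.16) for HFD VAT over HFD LN and 0.55 (95% interval -2.33 to 3.44) for lean VAT over lean LN. For HFD over lean they were 0.19 (95% interval -2.68 to 3.07) in VAT and 0.47 (95% interval -2.41 to 3.35) in LN. Differences of several-fold in either direction lie inside these intervals.

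**Figure D2:**
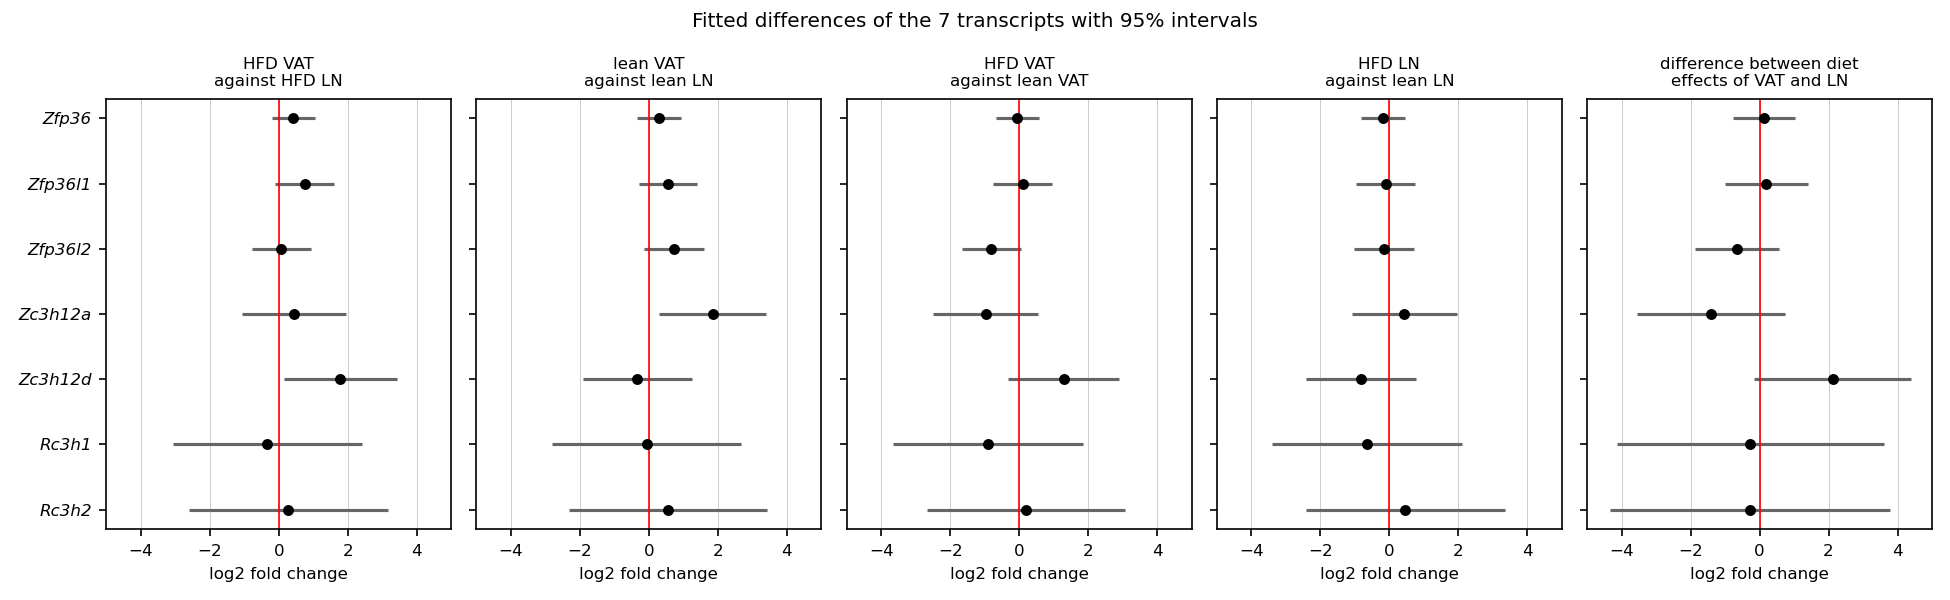
Fitted log2 fold changes (points) with 95% intervals (lines) for the 7 transcripts in 4 comparisons and for the diet effect in VAT minus that in LN. The interval leaves out 0 for Zc3h12d in HFD VAT against HFD LN and for Zc3h12a in lean VAT against lean LN, neither of which passed the adjusted threshold, and those of Rc3h1 and Rc3h2 are the widest.

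Per kilobase of transcript, the scale on which genes can be set side by side, Zfp36 led in every group, with 152 ± 41.2 CPM per kb in HFD VAT, 157 ± 41.6 in lean VAT, 113 ± 39.1 in HFD LN and 129 ± 39.4 in lean LN (SD, n = 4 each). Zfp36l2 came next in each group, with 22.5 ± 12.4 CPM per kb in HFD VAT, 39.3 ± 3.24 in lean VAT, 21.4 ± 2.33 in HFD LN and 23.7 ± 11.0 in lean LN. Zfp36l1 followed, with 18.8 ± 7.01 CPM per kb in HFD VAT, 17.6 ± 5.96 in lean VAT, 11.1 ± 1.67 in HFD LN and 12.0 ± 2.50 in lean LN. The ranges of mean ± SD of these 2 were apart in lean VAT and HFD LN and overlapped in HFD VAT and lean LN. The Regnase and Roquin transcripts lay between 1.60 and 13.5 CPM per kb, and their order changed from group to group: Zc3h12d led them in HFD VAT (13.5 ± 7.85), HFD LN (3.92 ± 2.42) and lean LN (6.95 ± 3.02), and Zc3h12a in lean VAT (7.28 ± 4.32). Among those 4, the ranges of mean ± SD of neighbours in that order overlapped in every group. In HFD VAT the ranges of Zc3h12d (13.5 ± 7.85) and Zc3h12a (3.72 ± 1.96) barely met.

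The transcripts also differed in how steady they were between libraries of a group. Zfp36l1 had a within-group SD of 0.46 on the log2 scale, where the median of 2096 genes within 0.5 log2 units of its level was 1.86, and 95.7% of those genes had a larger SD. Zc3h12a (SD 0.81) and Zc3h12d (SD 1.13) were also steadier than most, with larger SDs in 81.6% and 77.3% of genes of like level. Zfp36l2 had 0.59, with larger SDs in 70.0% of its like. Zfp36 had 0.43, beside a median of 0.40 among the 443 genes of its higher level. Rc3h1 (SD 1.92) and Rc3h2 (SD 2.58) were as scattered as genes of their level usually were, whose medians were 2.37 and 2.71.

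Likeness of pattern was measured as the root mean square difference of centred log2 CPM over the 16 libraries, among 9222 genes. The nearest to Zfp36 were Dusp2 (0.29) and Gpatch8 (0.31). Those nearest to Zfp36l1 were Slc25a5 (0.31) and Tap2 (0.32), and to Zfp36l2 Aggf1 (0.39) and Lypla1 (0.40). Zc3h12a was nearest to Prrc2a (0.54) and Sf3b6 (0.61), and Zc3h12d to Ddost (0.69) and Supt16 (0.72). Rc3h1 had Jade2 (1.01) and Lrrc58 (1.25), and Rc3h2 had Man2a1 (1.42) and Pum2 (1.66). Among the members themselves, Zfp36 and Zfp36l1 were the most alike (0.53), and Rc3h1 and Rc3h2 the least (3.30). Steady genes score low on this measure by construction, since they have little to differ by.

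Of 16 partners and inactivators tested, 1 rose in VAT and none fell, on either diet: Arid5a, whose product binds stem-loops and protects such mRNA from Regnase-1. A count of 1 in 16 is close to the share called over all genes, 4.56% on HFD and 3.04% in lean mice, so it says nothing particular about the list. It had 655, 720, 458 and 508 CPM in HFD VAT against 197, 275, 157 and 217 CPM in HFD LN. It had 918, 664, 640 and 603 CPM in lean VAT against 303, 196, 256 and 276 CPM in lean LN. No VAT library overlapped an LN library. The fold was 2.77 on HFD (edgeR adjusted p = 0.000826) and 2.74 in lean mice (edgeR adjusted p = 0.00114). The other 15, among them Malt1 and the MK2 gene Mapkapk2, were not called, and the list's median log2 fold change was 0.37 on HFD and 0.21 in lean mice. The related zinc finger genes gave 0 calls among 3 tested.

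Other proteins that bind AU-rich or stem-loop elements gave 3 rises among 17 on HFD and 2 in lean mice, with none lower. The share called over all genes, in either direction, was 4.56% on HFD and 3.04% in lean mice. Ybx3, a cold shock protein that binds mRNA, was 5.89-fold higher on HFD (220 ± 62.4 CPM in HFD VAT against 37.3 ± 7.60 CPM in HFD LN; edgeR adjusted p = 4.37e-05). In lean mice it was 5.83-fold higher (224 ± 30.8 CPM in lean VAT against 38.4 ± 9.29 CPM in lean LN; edgeR adjusted p = 6.52e-05). Arid5a is in this list too, and the remaining rise on HFD was Zc3hav1, the zinc finger antiviral protein gene, named after its values were seen. The competitor Elavl1, which stabilises AU-rich mRNA, and the decay factors Hnrnpd and Khsrp were not called. Median log2 fold changes of the list were 0.45 on HFD and 0.24 in lean mice.

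In the decay machinery that the 3 families recruit, the lists of deadenylation and decapping genes had 1 call each per tissue comparison, near the share over all genes of 4.56% on HFD and 3.04% in lean mice. Of 20 CCR4-NOT and other deadenylation genes, 1 rose in each tissue comparison: Btg2, whose product stimulates deadenylation, 1.88-fold on HFD (edgeR adjusted p = 0.0273) and 1.85-fold in lean mice (edgeR adjusted p = 0.0414). Its call on HFD was lost without HFD VAT replicate 1 or 4 or without HFD LN replicate 1, 3 or 4 (edgeR adjusted p up to 0.0901), and that in lean mice without any of 14 of the 16 libraries, the exceptions being lean VAT replicate 1 and HFD VAT replicate 4 (up to 0.146). Of 17 decapping and 5′ to 3′ decay genes, Dcp2, the decapping enzyme, rose on HFD (58.4 ± 13.9 CPM in HFD VAT against 13.2 ± 5.55 CPM in HFD LN; edgeR adjusted p = 0.0447). That call was lost without any 1 of the 8 libraries compared and without lean VAT replicate 2 or 4 or lean LN replicate 2, 3 or 4 (up to 0.122). Xrn2, a nuclear exonuclease, fell in lean VAT (306 ± 127 CPM against 647 ± 92.9 CPM in lean LN; edgeR adjusted p = 0.0378), a call lost without any 1 of 13 libraries, all but lean VAT replicates 1 and 3 and HFD VAT replicate 3 (up to 0.118). On HFD it had 395 ± 57.2 CPM in VAT against 657 ± 67.9 CPM in LN, also without overlap (log2 fold change -0.73, edgeR adjusted p = 0.139), and it was called there under 4 alternatives, with the lowest adjusted p, 0.0136, without lean VAT replicate 1. The RNA exosome gave 0 calls among 15 genes in either tissue comparison, and its medians were -0.06 on HFD and -0.32 in lean mice.

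**Figure D3:**
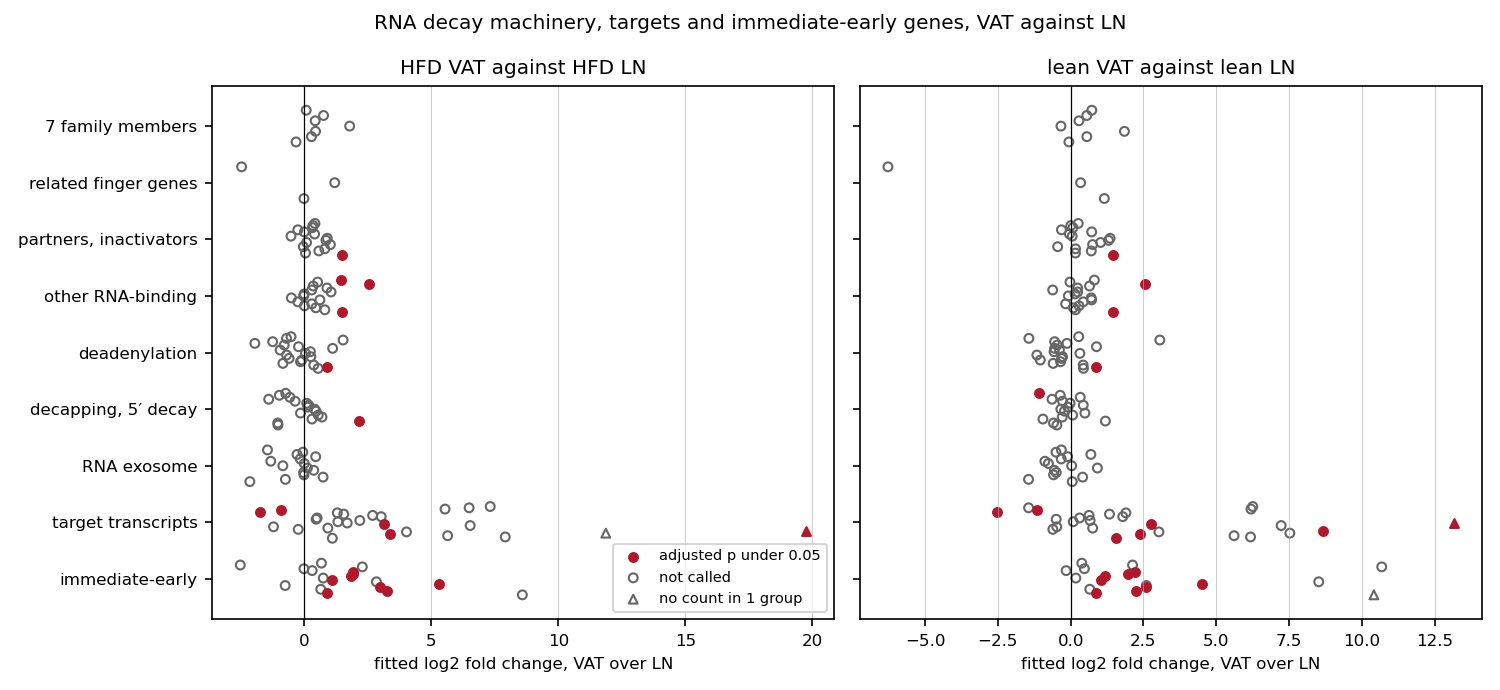
Fitted log2 fold changes of VAT over LN, on HFD (left) and in lean mice (right), for the 7 transcripts and 8 lists around them. Filled red symbols passed an adjusted p of 0.05 and triangles had no count in 1 group, where the fitted size is not a measure. None of the 7 family members is filled, while 8 of 18 immediate-early genes are in each panel, beside 4.56% (left) and 3.04% (right) of all genes.

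Among the target transcripts some passed the test in VAT. Of 26 tested, 3 rose and 2 fell on HFD and 5 rose and 2 fell in lean mice. Over all genes 4.56% were called on HFD and 3.04% in lean mice, in either direction. The list's median log2 fold changes were 2.44 and 1.68. These medians stayed the same with genes at 0 counts in a group set to a floor of 3 counts in each library. The other 6 of the list, Il3, Il6, Il10, Il17a, Il12b and Il1b, had too few counts to be tested. Cd69, an activation and tissue retention receptor with a heptamer in its UTR, had 1115 ± 67.0 CPM in HFD VAT against 108 ± 29.5 CPM in HFD LN (edgeR adjusted p = 3.46e-06). It had 636 ± 147 CPM in lean VAT against 123 ± 32.8 CPM in lean LN (edgeR adjusted p = 6.52e-05). Cxcl10, a chemokine gene without either motif, had 2225 ± 230 CPM in HFD VAT against 0 counts in HFD LN (edgeR adjusted p = 0.00297). In lean mice it had 1097 ± 233 CPM in VAT against 2.70 ± 5.29 CPM in LN (edgeR adjusted p = 0.0346). That lean call was lost without any 1 library of lean VAT or HFD VAT and without lean LN replicate 1, 2 or 4 (up to 0.0896). Macrophages and natural killer cells, whose marker sums above were also higher in VAT, can make several of these transcripts, and their part was not tested. Only 1 of the 9 macrophage and monocyte markers had enough counts to be tested, and it was not called on either diet. Of 5 natural killer markers tested, 0 were called on either diet.

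Il2, the T cell growth factor gene whose nonamer is printed above, had 11.7, 10.4, 16.5 and 20.0 CPM in HFD VAT against 1.52, 1.49, 1.08 and 2.64 CPM in HFD LN. It had 23.5, 17.7, 29.2 and 7.61 CPM in lean VAT against 2.49, 3.47, 3.02 and 2.46 CPM in lean LN. Every VAT library was higher. The fold was 8.69 on HFD (edgeR adjusted p = 0.0130) and 6.81 in lean mice (edgeR adjusted p = 0.0308). The lean call was lost without any 1 library of lean LN or without lean VAT replicate 2 or 3 (up to 0.106). Il2ra, the gene of a chain of its receptor, had 8.84, 18.2, 20.2 and 44.6 CPM in lean VAT against 0 counts in lean LN (edgeR adjusted p = 0.0127) and was not called on HFD (edgeR adjusted p = 0.678). Markers of CD4 and regulatory T cells (5 genes), which also make Il2 or Il2ra, summed to 48.8 to 175 CPM in HFD VAT, 44.3 to 266 CPM in lean VAT, 23.1 to 45.0 CPM in HFD LN and 24.5 to 62.9 CPM in lean LN, with Foxp3 at 0 in lean VAT and both LN groups and Cd40lg at 0 in HFD VAT. Cd4 and Foxp3 had too few counts to be tested. Of the 3 tested, Cd40lg was lower in VAT on HFD and Zbtb7b higher in lean mice, and the part of such cells in these results was not tested.

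Tnf and Ifng, whose AU-rich matches are printed above, were near 0 in LN and high in VAT without being called. Tnf had 10.6, 145, 107 and 159 CPM in HFD VAT against 0, 0, 0.0220 and 9.04 CPM in HFD LN. It had 116, 131, 168 and 250 CPM in lean VAT against 9.02, 0.0180, 0.0193 and 0 CPM in lean LN. Every VAT library exceeded every LN library of the same diet, and 1 LN library of each diet stood near 9 CPM while the others were near 0. The edgeR adjusted p was 0.250 on HFD and 0.288 in lean mice. Without HFD LN replicate 4 it was 0.0361, and without lean LN replicate 1 it was 0.0483. Ifng had 107, 205, 248 and 258 CPM in HFD VAT against 0, 0, 5.90 and 2.98 CPM in HFD LN. It had 256, 270, 260 and 242 CPM in lean VAT against 0, 0, 6.87 and 0 CPM in lean LN. These groups did not overlap either, and the edgeR adjusted p was 0.140 on HFD and 0.155 in lean mice, or 0.0141 without lean LN replicate 3. With limma voom both genes were called in both comparisons (adjusted p 0.0110 and 0.00342 for Tnf, 0.00289 and 0.00134 for Ifng, HFD and then lean).

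**Figure D4:**
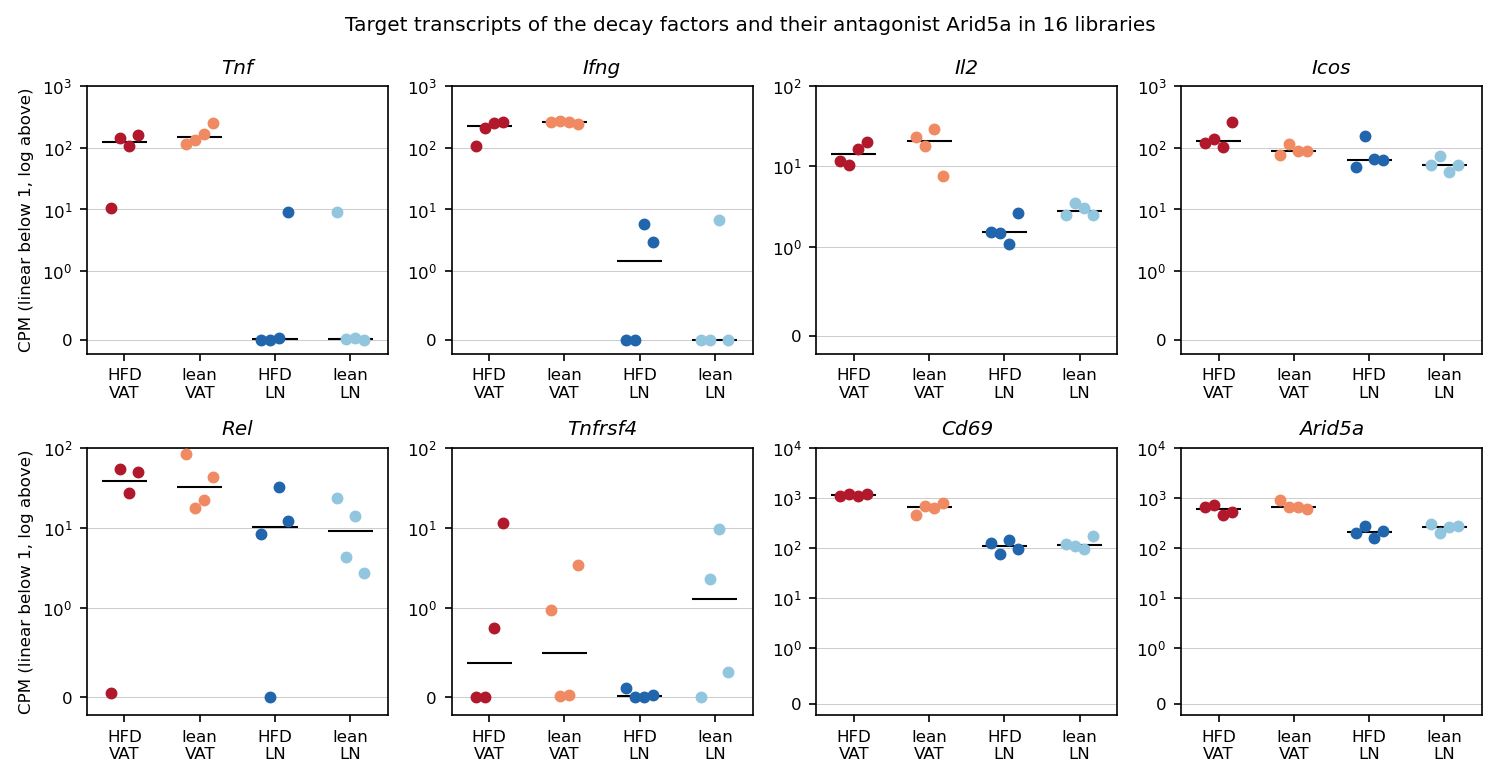
Levels in CPM of 7 target transcripts and of Arid5a in the 4 libraries of each group, on an axis that is linear below 1 and logarithmic above. Lines are group medians. All VAT points of Tnf, Ifng, Il2, Cd69 and Arid5a lie above all LN points, while those of Rel and Tnfrsf4 overlap.

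Icos, Rel and Tnfrsf4 were not called by edgeR. Icos, a costimulatory receptor gene with the stem-loop sequence printed above, had 156 ± 73.9 CPM in HFD VAT against 82.3 ± 47.4 CPM in HFD LN (edgeR adjusted p = 0.211) and 92.1 ± 16.7 CPM in lean VAT against 54.5 ± 13.5 CPM in lean LN (edgeR adjusted p = 0.442). Rel, an NF-κB subunit gene, had 32.7 ± 24.7 CPM in HFD VAT against 13.3 ± 13.9 CPM in HFD LN, and 41.2 ± 29.7 CPM in lean VAT against 11.1 ± 9.55 CPM in lean LN, with overlap in both. Tnfrsf4, which encodes OX40, was at or below 11.4 CPM everywhere and overlapped. Its fitted log2 fold change on HFD was 6.49 (95% interval 0.25 to 12.7; edgeR adjusted p = 0.245), between 2.93 and 8.32 without 1 library, and DESeq2 called it (adjusted p = 0.0386). Of the targets that fell, Slamf6, a receptor of the SLAM family, had 118 ± 45.1 CPM in HFD VAT against 399 ± 84.6 CPM in HFD LN (edgeR adjusted p = 0.0240) and 73.7 ± 41.5 CPM in lean VAT against 425 ± 111 CPM in lean LN (edgeR adjusted p = 0.00276). Its call on HFD was lost without HFD VAT replicate 1, 3 or 4 or HFD LN replicate 1, 2 or 4 (up to 0.0710). Tcf7, the gene of the memory-associated factor TCF-1, had 1132 ± 120 CPM in HFD VAT against 2168 ± 72.4 CPM in HFD LN (edgeR adjusted p = 0.0455) and 949 ± 377 CPM in lean VAT against 2117 ± 201 CPM in lean LN (edgeR adjusted p = 0.0178). On HFD the call was lost without any of 14 libraries, all but lean VAT replicates 1 and 2 (up to 0.106), and in lean mice without lean LN replicate 1 or 4 (up to 0.0585). The other rise among targets in lean mice was Bcl2, a survival gene named after its values were seen.

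Immediate-early genes, like Zfp36, answer receptor and stress signals within minutes, and many of them carry AU-rich elements. In VAT 8 of 18 tested rose on each diet, with none lower. Btg2, given above among the deadenylation genes, is 1 of the 8 on each diet, and its calls were lost without single libraries. Over all genes 4.56% were called on HFD and 3.04% in lean mice, in either direction. The medians of the list were 1.46 on HFD and 2.04 in lean mice. Dusp1, the phosphatase that switches off the p38 pathway above MK2, had 512 ± 73.1 CPM in HFD VAT against 53.2 ± 15.9 CPM in HFD LN (9.61-fold, edgeR adjusted p = 2.19e-05). It had 407 ± 112 CPM in lean VAT against 86.1 ± 25.3 CPM in lean LN (4.73-fold, edgeR adjusted p = 0.000434). Junb, an AP-1 subunit gene, was 3.74-fold higher on HFD and 3.89-fold in lean mice, and Ier2, an early response gene, 2.12-fold and 2.08-fold. The 95% interval of Zfp36 reaches up to 2.08-fold on HFD and 1.89-fold in lean mice, and no test of Zfp36 against these genes was run. No gene of the 8 lists was called between HFD and lean mice in VAT or in LN.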

How the data were processed

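Bulk RNA of 16 libraries was analysed from the deposited table of whole-number counts per gene, which the authors made with kallisto 0.42.4 and analysed with DESeq2, per the submitters' processing notes. Those notes name the human build GRCh38 although the table's gene names are mouse ones, and how estimates became whole counts is not given in the sources used here. The labels name 2 library kits, and a growth protocol for human synovial fibroblasts. Counts were tested in R 4.3.3 with edgeR 4.0.16 (TMM, filterByExpr, robust quasi-likelihood F-test, 4 group means in one fit, Benjamini-Hochberg over 15675 genes, threshold 0.05). The 95% intervals use the fitted standard errors. The code was tested on simulated data. Named were the 7 members, up to 2 called genes per direction, list and comparison with at least 5 CPM, 6 fixed targets and the 2 genes most like each member. The members and lists were chosen with earlier results of these data known. Alternatives used RLE or upper quartile factors, no or a stricter filter, DESeq2 1.42.0, limma 3.58.1 voom, fewer groups or libraries, and a replicate block. UTRs, lengths for CPM per kb and coordinates came from GENCODE M21 (GRCm38), matched by symbol. Floors of 3 counts cover counting error only.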

Additional observations from a re-analysis of the deposited data

Results flagged for a closer look

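In 7 of 102 groups of 4 libraries checked, 1 library stood apart from the other 3 by Dixon's criterion at the 95% level. For normally distributed values chance gives about 1 in 20 groups at that level. The criterion was applied to unlogged CPM, with zeros in some groups, so that rate need not hold here. Among the 28 groups of the 7 regulators this held for 1. Rc3h1 had 85.1 CPM in HFD VAT replicate 4, against 0.436 to 2.12 CPM in the other 3 libraries. Tnf had 9.04 CPM in HFD LN replicate 4 (others at most 0.0220 CPM) and 9.02 CPM in lean LN replicate 1 (others at most 0.0193 CPM). Ifng had 6.87 CPM in lean LN replicate 3, where the others had no count. Cxcl10 had 10.6 CPM in the same library, against at most 0.146 CPM in the others. Tnfrsf4 had 11.4 CPM in HFD VAT replicate 4, the library of the high Rc3h1, against at most 0.777 CPM in the others. Dusp1 was the one case of a low library, with 241 CPM in lean VAT replicate 1 and 444 to 483 CPM in the others.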

How the results depend on the processing

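Of 868 values of the 7 regulators under the alternatives, 813 kept their direction and side of the threshold, 53 changed sign and 2 passed the threshold. The 2 were Rc3h1 for HFD VAT over HFD LN without HFD VAT replicate 4 and Zc3h12a for lean VAT over lean LN with DESeq2. Sign changes were of fitted log2 values whose intervals hold 0, and the cause was not tested. Without the 3 libraries with most missing genes the values were 0.62 (Rc3h1, tissue on HFD), 0.013 (Zc3h12d, tissue in lean mice), 0.34 (Rc3h1, diet in VAT), and 0.98 (Rc3h1) and -0.30 (Zfp36) for the difference of diet effects. With voom they were 0.12 (Zc3h12d, tissue in lean mice), -0.31 (Rc3h2, diet in VAT) and -0.071 (Zfp36, difference of diet effects). Upper quartile factors and the stricter filter gave Rc3h1 0.021 and 0.034 for tissue in lean mice, and RLE factors and DESeq2 both gave Zfp36 0.034 for diet in VAT.

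Leaving out 1 library at a time changed a sign within these ranges: on HFD, tissue, Rc3h1 -4.30 to 0.34, Rc3h2 -0.13 to 1.24 and Zfp36l2 -0.35 to 0.27; in lean mice, tissue, Rc3h1 -0.39 to 0.18, Zc3h12d -0.70 to 0.033 and Tnfrsf4 -3.18 to 0.37. For diet in VAT they were Zfp36 -0.21 to 0.093, Zfp36l1 -0.10 to 0.32 and Rc3h2 -0.14 to 0.61, and for diet in LN Rc3h2 -0.49 to 1.04, Zfp36l1 -0.22 to 0.026, Zfp36 -0.41 to 0.038 and Zfp36l2 -0.43 to 0.10. For the difference of diet effects they were Rc3h1 -4.23 to 0.40, Rc3h2 -0.85 to 0.69 and Zfp36 -0.071 to 0.37.

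Genes called for tissue on HFD numbered 714, or 441 without a filter, 2578 with DESeq2 and 483 to 886 without 1 library, and members called 0 to 1. For tissue in lean mice 476 were called, or 1569 with DESeq2 (1 member), 1373 with voom and 325 to 492 without 1 library. For diet in VAT 9 were called, or 2 without a filter, 769 with DESeq2, 32 with voom, 0 from those groups alone, 62 without the 3 libraries and 3 to 40 without 1 library. For diet in LN 0 were called, or 236 with DESeq2, 3 with voom and 0 to 1 without 1 library. The difference of diet effects gave 3, or 1 with upper quartile factors, no filter or the stricter filter, 635 with DESeq2, 6 with voom, 46 without the 3 libraries and 0 to 24 without 1 library. Among named genes, calls were also lost without a filter for Btg2 and Il2 in both tissue comparisons, Dcp2 and Tcf7 on HFD, and Xrn2 and Cxcl10 in lean mice, and with DESeq2 for Cxcl10 in both. Fitting only the groups compared ended those of Dcp2 on HFD and of Btg2, Xrn2, Cxcl10, Il2 and Tcf7 in lean mice. RLE factors ended those of Tcf7 on HFD and Btg2 in lean mice, upper quartile factors that of Dcp2, and leaving out the 3 libraries those of Dcp2 and Slamf6 on HFD and Cxcl10 and Il2 in lean mice.

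With a replicate block, diet in VAT gave 1 call and the difference of diet effects 0, Rc3h1 had 0.22 for tissue in lean mice and Rc3h2 0.28 for the difference of diet effects. The block also ended the calls of Il2 and Tcf7 in both tissue comparisons, Dcp2 and Slamf6 on HFD, and Btg2, Xrn2 and Cxcl10 in lean mice. The deviations of same-numbered libraries correlated at -0.082 to 0.041, with 0 of 16 pairs over 0.1. Pairs from different diets cannot share a mouse. For VAT and LN of the same diet, low correlations of scattered libraries do not decide whether equal numbers mean the same mouse. With 4 libraries a group, and Rc3h1 and Rc3h2 as scattered as they are, differences of several-fold in those 2 lie inside the intervals.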
